A study of Mus musculus with 6 samples.

Results

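Liver transcripts of 10 genes of the growth hormone axis were followed in mice on a high-fat, cholesterol-rich diet (HFC). The genes were taken by symbol, namely Ghr, Stat5a, Stat5b, Cish, Socs2, Igf1, Igfals, Igfbp1, Igfbp2 and Mup5. All 10 were on the array, each as 1 probe, out of 16887 named genes. Liver RNA of 6 C57BL/6 mice was hybridised together with 1 common reference on 2-colour oligonucleotide arrays, each array holding 1 mouse. The mice were 7 weeks old and ate the HFC diet for 12 days. From day 5, per the series' design text, they received by mouth once daily fenofibrate at 100 mg/kg (2 mice), lovastatin at 30 mg/kg (2 mice) or vehicle (2 mice, called HFC mice here). The reference was pooled liver RNA of 6 mice of the same strain and age on standard chow, so it has no spread of its own. Fenofibrate activates the nuclear receptor PPARα and lovastatin blocks cholesterol synthesis. The titles name the lovastatin mice, although the treatment text of those samples names fenofibrate, and the titles were followed.

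Growth hormone from the pituitary binds its receptor on hepatocytes and activates the kinase JAK2, which phosphorylates the transcription factors STAT5A and STAT5B. STAT5 then switches on Igf1, the circulating growth factor, Igfals, which holds IGF1 in a stable serum complex, and the inhibitors Cish and Socs2, which close the signal again. The binding proteins IGFBP1 and IGFBP2 carry IGF1 in blood. Transcription of Igfbp1 is held down by insulin. In mouse liver growth hormone also drives the major urinary proteins, secreted pheromone carriers encoded by a cluster of related genes that includes Mup5.

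Short stretches of regulatory sequence show where the letters of the STAT5 consensus, TTCNNNGAA, and of the FoxO-bound insulin response core, CAAAACAA, lie near these genes. RefSeq windows from 250 bases before to 50 after an annotated start (GRCm38.p6) were supplied for 8 of the 10 genes, in 14 windows, with none for Mup5 and Socs2. TTCNNNGAA, which reads alike on both strands, was in 3 of the 14 windows and in 8.30% of all 32851 supplied windows. It occurred 2 times in Cish, beginning at base 1 and base 12 counted from the annotated start. Igfals held it in 2 of its 3 windows, 236 and 58 bases before their starts. CAAAACAA (TTGTTTTG on the other strand), a motif chosen after the values were seen, was in the Igfbp1 window, 108 bases before the start, and in 2.51% of all windows. These are matches of letters and no evidence of binding. Capitals mark the motif in each sequence, all on the plus strand, and the Igfbp1 line gives the 250 bases before its start.
Cish, chr9:107296654-107296683: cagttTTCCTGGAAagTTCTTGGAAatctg
Igfals, upstream window, chr17:24877598-24877626: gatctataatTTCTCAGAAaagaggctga
Igfals, downstream window, chr17:24878163-24878191: ctgccaggtgTTCCTAGAAgaggccctgg
Igfbp1, chr11:7197537-7197786: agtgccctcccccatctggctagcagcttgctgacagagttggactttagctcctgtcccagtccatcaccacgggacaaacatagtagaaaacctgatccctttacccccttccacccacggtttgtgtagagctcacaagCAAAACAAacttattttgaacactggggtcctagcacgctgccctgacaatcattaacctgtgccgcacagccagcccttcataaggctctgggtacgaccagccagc

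Values are log ratios, read as log2 of mouse over chow pool. That direction is likely and not stated: on each array the mouse RNA is given as channel 1. The mouse carried Cy3 on the fenofibrate arrays and Cy5 on the other 4, so fenofibrate and dye cannot be told apart. A control spot read 4.83 and 4.95 on the fenofibrate arrays and lay below 0 on the other 4, so its sign changed with the dye. Ratios of mouse over pool give such a change for a spot that is brighter in 1 dye whatever the sample. Turned in sign, the fenofibrate ratios would put that spot below 0 on every array, as ratios of dye over dye would. The direction itself was not tested. Correlations between arrays, with the displaced spots described next left out, ran between 0.0569 and 0.505. In the direction taken here, those between a fenofibrate array and an array of another group ran between 0.0569 and 0.316. The SD of an array ran between 0.419 and 1.09, widest in lovastatin replicate 1. On HFC replicate 2, 4 blocks of 27 array positions carry values displaced along the array, 50.3% of the probes used. Their correlation with the mean of 4 other arrays was between -0.0337 and 0.0274 as deposited. Each block was given the rotation with the highest such correlation, between 0.297 and 0.311. The next best rotation of these blocks gave between 0.0251 and 0.0448. Among the 10 genes, 6 lie there (Stat5a, Stat5b, Cish, Igfbp1, Igfbp2 and Mup5), and for them the HFC replicate 2 value was left out of every test, leaving 1 HFC mouse. The value after rotation is given beside it as "put back". In bulk liver, fewer cells of a type and less RNA per cell cannot be told apart.

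In livers of HFC-fed mice as a whole, Mup5 was the member whose change from the chow pool passed the test, about 9.45-fold lower. Igfbp1 lay below the pool on every array, by less on average and with a wider spread between mice, and did not pass. Ghr and Igf1 lay modestly below the pool on all 6 arrays, and Igfals on average. Igfbp2 and Socs2 lay modestly above it. Igfals, Stat5a, Stat5b and Cish had arrays on both sides of 0. This comparison gives the fenofibrate arrays a weight of 0.5 and the lovastatin and HFC arrays 0.25 each, so that both dye orientations count equally. Its mean thus mixes diet alone with diet plus drug and is no measure of the diet alone. Mup5 was 16.3-fold lower than the pool in fenofibrate mice, 5.78-fold in lovastatin mice and 5.17-fold in HFC replicate 1, its 1 usable HFC mouse. By limma with Benjamini-Hochberg adjustment, 1 of the 10 genes passed, beside 0.566% of 19447 features tested (0.396% lower and 0.17% higher). At an unadjusted p under 0.05 there were 6 of the 10, beside 10.8% of all features. The 10 genes were chosen with earlier results of these data known, so these counts are a description and no test. The median of the 10 genes was -0.43, against 0.01 over all features, with 7 of them below 0. Below 0 on every array with a usable value were 4 of the 10, beside 7.12% of features, and above 0 on every such array 2, beside 7.23%. With the fenofibrate ratios turned in sign, 0 of the 10 lay below 0 throughout, beside 3.29% of features, and 1, Stat5a, lay above it, beside 3.32%. Turning sets the fenofibrate weight of 0.5 against the other groups. A gene with like ratios in all groups then has a dye-balanced mean near 0 by arithmetic alone. Turned dye-balanced values, here and below, show what rests on the direction and are no separate check of a call. No feature passed in the dye-balanced comparison with those ratios turned, nor without either fenofibrate array.

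**Figure D1:**
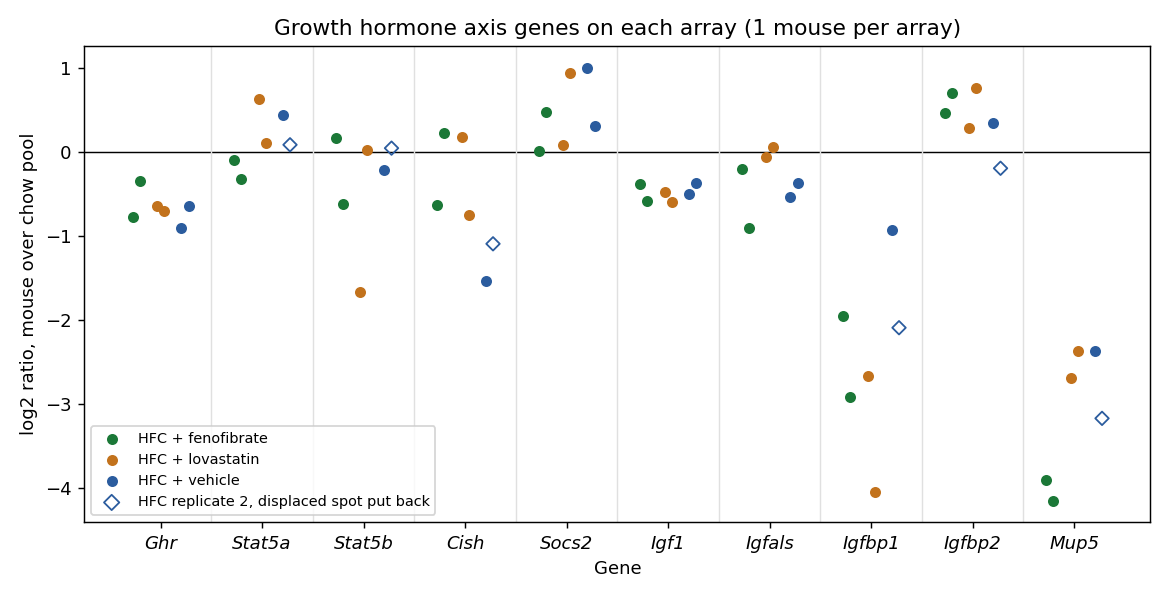
Log2 ratio of mouse over chow pool (vertical axis) for each of the 10 genes, 1 point per array, coloured by group, with an open diamond for the displaced HFC replicate 2 spot after it was put back. All points of Mup5 lie at -2.37 or lower, those of Igf1 fall between -0.59 and -0.37, and those of Igfbp1 spread over 3.13 log2 units.

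Ghr encodes the growth hormone receptor. Its log2 ratio was -0.77 and -0.34 in fenofibrate mice, -0.64 and -0.70 in lovastatin mice, and -0.90 and -0.64 in HFC mice. All 6 arrays lay below 0 and the groups overlapped. The dye-balanced mean was -0.64 (SE 0.12, 95% interval -0.94 to -0.34), which did not pass over all features (limma adjusted p = 0.136). In the direction taken here 2.80% of features had a lower value, and with the fenofibrate ratios turned in sign the mean was -0.08 (limma adjusted p = 0.919).

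Stat5a and Stat5b are the neighbouring genes of the 2 STAT5 proteins. Stat5a was at -0.09 and -0.32 in fenofibrate mice, at 0.64 and 0.11 in lovastatin mice, and at 0.45 in HFC replicate 1 (0.09 put back in replicate 2). Both fenofibrate arrays were thus below 0 and every other value above it. How many of all features divide this way was not counted. Stat5b was at 0.17 and -0.62 in fenofibrate mice, at -1.67 and 0.03 in lovastatin mice, and at -0.21 in HFC replicate 1 (0.05 put back). Its lowest value came from lovastatin replicate 1, the widest array. Dye-balanced means were 0.10 for Stat5a (SE 0.15, limma adjusted p = 0.848) and -0.37 for Stat5b (SE 0.32, limma adjusted p = 0.752).

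Cish and Socs2 encode feedback inhibitors that STAT5 induces and that dampen the receptor's signal. Cish was at -0.63 and 0.23 in fenofibrate mice, at 0.18 and -0.75 in lovastatin mice, and at -1.53 in HFC replicate 1 (-1.09 put back). Both HFC values were below all values of the drug-treated mice, a separation whose share over all features was not counted. Socs2 was at 0.02 and 0.48 in fenofibrate mice, at 0.09 and 0.94 in lovastatin mice, and at 1.01 and 0.31 in HFC mice. It lay above 0 on all 6 arrays, with overlapping groups. The dye-balanced mean was -0.55 for Cish (95% interval -1.18 to 0.07) and 0.42 for Socs2 (95% interval -0.05 to 0.89), both at a limma adjusted p = 0.511. These 2 inhibitors thus lay on opposite sides of the pool on average, and both intervals include 0.

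Igf1 had the narrowest range of the 10 genes, in the direction taken here. Its log2 ratio was -0.38 and -0.58 in fenofibrate mice, -0.47 and -0.59 in lovastatin mice, and -0.50 and -0.37 in HFC mice. These values span 0.22 log2 units over both dye orientations, a range narrower than that of all but 0.599% of the 9686 features with 6 usable values, whose median range was 1.03. Both the range and the mean rest on the likely direction of the fenofibrate ratios. Turned in sign, the range would be 1.17 and the dye-balanced mean -0.0012 (limma adjusted p = 0.998). The dye-balanced mean was -0.48 (SE 0.11, 95% interval -0.75 to -0.22), a 1.40-fold lower ratio that did not pass over all features (limma adjusted p = 0.187). Igfals, the acid-labile subunit, was at -0.20 and -0.90 in fenofibrate mice, at -0.05 and 0.06 in lovastatin mice, and at -0.53 and -0.37 in HFC mice. Its lovastatin values were nearer to 0 than those of the other 4 mice, and how many of all features show this was not counted. The dye-balanced mean of Igfals was -0.39 (95% interval -0.73 to -0.04, limma adjusted p = 0.410).

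Igfbp1, the insulin-repressed binding protein gene, had the widest range of the 10 genes. It was at -1.95 and -2.92 in fenofibrate mice, at -2.67 and -4.05 in lovastatin mice, and at -0.92 in HFC replicate 1 (-2.09 put back). Every value lay below 0, and the HFC replicate 1 mouse was the nearest to the pool. The dye-balanced mean was -2.29 (SE 0.29, 95% interval -3.07 to -1.50, limma adjusted p = 0.0907). Put back it was -2.43 (limma adjusted p = 0.0320), a call within a background of 0.987% of features and 2 of the 10 genes. Without the noisiest 10% of features Igfbp1 passed too (limma adjusted p = 0.0178, among 346 features called). Array weights gave the same call (limma adjusted p = 0.0387, among 230 features called). Igfbp1 did not pass with values as deposited, arrays centred or quantile-normalized, single probes or a robust prior. It was also past the threshold without lovastatin replicate 1 (limma adjusted p = 0.0277) or without lovastatin replicate 2 (limma adjusted p = 0.0291). Without fenofibrate replicate 1 or 2 the limma adjusted p was 0.578 and 0.944, and with the fenofibrate ratios turned in sign the mean was 0.15 (limma adjusted p = 0.934). Just 0.118% of features had a lower mean.

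Igfbp2 encodes another IGF carrier and lay on the other side of the pool. It was at 0.47 and 0.71 in fenofibrate mice, at 0.29 and 0.77 in lovastatin mice, and at 0.35 in HFC replicate 1 (-0.19 put back). The 5 usable values were above 0 with the groups overlapping, and the value put back was below it. Its dye-balanced mean was 0.52 (SE 0.15, 95% interval 0.12 to 0.91, limma adjusted p = 0.334).

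Mup5 had the lowest dye-balanced mean of the 10 genes, although Igfbp1 was lower in lovastatin mice. Its log2 ratio was -3.91 and -4.15 in fenofibrate mice, -2.69 and -2.37 in lovastatin mice, and -2.37 in HFC replicate 1 (-3.17 put back). The fenofibrate mice were the lowest and did not overlap with the other groups, put back or not. The share of all features with such a separation was not counted. Over all HFC-fed mice the mean was -3.24 (SE 0.13, 95% interval -3.60 to -2.88, limma adjusted p = 0.0105), and -3.34 put back (limma adjusted p = 0.00423). Only 9 of 19447 features had a lower mean. The call was lost without fenofibrate replicate 1 (-3.30, limma adjusted p = 0.333) and without fenofibrate replicate 2 (-3.18, limma adjusted p = 0.397), and no value can be had without HFC replicate 1. As deposited, where HFC replicate 2 reads 0.11 from another spot, the mean was -2.93 (limma adjusted p = 0.0532). If the fenofibrate ratios ran the other way, it would be 0.79 (limma adjusted p = 0.903). Probe sequences were not used here and the Mup genes are related, so the probe may also report other Mup transcripts.

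**Figure D2:**
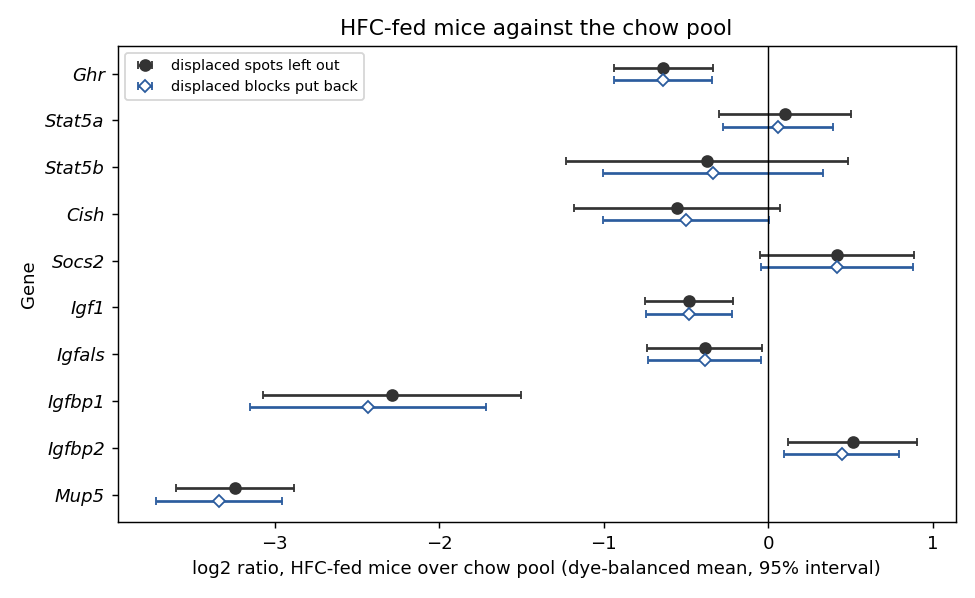
Dye-balanced mean log2 ratio of HFC-fed mice over the chow pool (horizontal axis) with its 95% interval, per gene, with displaced spots left out (filled circles) and put back (open diamonds). Mup5 and Igfbp1 stand far below 0, at -3.24 and -2.29 with displaced spots left out, while the other 8 genes lie between -0.64 and 0.52.

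Taken group by group against the pool, Mup5 and Igfbp1 had the lowest means in fenofibrate and lovastatin mice, and Mup5 and Cish in HFC mice with displaced spots left out. With 2 arrays or fewer a group none of the 10 passed by limma, nor did any of the 19470 to 19501 features tested in each (0%). In fenofibrate mice Mup5 averaged -4.03 ± 0.17 (SD, n = 2), 16.3-fold lower than the pool, at a limma adjusted p = 0.0501. Put back, where HFC replicate 2 adds to the shared estimate of the spread, the limma adjusted p was 0.0306, as 1 of 10 genes beside 0.164% of features. In lovastatin mice Mup5 averaged -2.53 ± 0.23 (SD, n = 2), 5.78-fold lower (limma adjusted p = 0.130). Igfbp1 averaged -2.44 ± 0.69 in fenofibrate mice and -3.36 ± 0.98 in lovastatin mice (SD, n = 2 each), at limma adjusted p = 0.315 and 0.295. In HFC mice, with replicate 2 left out for displaced genes, Mup5 was at -2.37 (limma adjusted p = 0.346), Cish at -1.53 (limma adjusted p = 0.993) and Igfbp1 at -0.92 (limma adjusted p = 1), and Ghr averaged -0.77 ± 0.18 (SD, n = 2, limma adjusted p = 0.814). The value put back brought Mup5 to -2.77 ± 0.57, Igfbp1 to -1.51 ± 0.83 and Cish to -1.31 ± 0.31 (SD, n = 2 each), which puts Igfbp1 below Cish. At an unadjusted p under 0.05 there were 4 of the 10 genes in fenofibrate mice, 4 in lovastatin mice and 4 in HFC mice, beside 7.62%, 10.6% and 4.72% of features. Put back, 2 features passed in lovastatin mice (0.0103%) and 3 in HFC mice (0.0154%), with 0 of the 10 genes among them in either group. These comparisons share the chow pool and are not independent of each other.

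Whether a drug altered these genes on the diet was asked by setting drug-treated mice against HFC mice. None of the 10 genes passed by limma for fenofibrate or lovastatin, beside 0% of 19456 and 19485 features. At an unadjusted p under 0.05 there was 1 gene for each drug, beside 2.87% of features for fenofibrate and 2% for lovastatin. For fenofibrate that gene was Mup5, at -1.66 relative to HFC mice (95% interval -2.61 to -0.71, limma adjusted p = 1), or -1.26 put back. For lovastatin it was Igfbp1, at -2.44 relative to HFC mice (95% interval -4.49 to -0.39, limma adjusted p = 0.972), or -1.86 put back (limma adjusted p = 0.826). Mup5 had a difference of -0.16 between lovastatin and HFC mice (95% interval -1.11 to 0.79), and of 0.24 put back. Cish was higher in both drug groups than in HFC mice, by 1.33 for fenofibrate (95% interval -0.31 to 2.97) and by 1.25 for lovastatin (95% interval -0.39 to 2.88), which rests on 1 HFC mouse. Igf1 had the narrowest intervals of the 10 genes for both drugs, -0.66 to 0.57 for fenofibrate and -0.71 to 0.52 for lovastatin. Intervals for single genes are not adjusted for the number of genes. The fenofibrate differences also hold any dye effect, since the mouse was in the other dye.

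**Figure D3:**
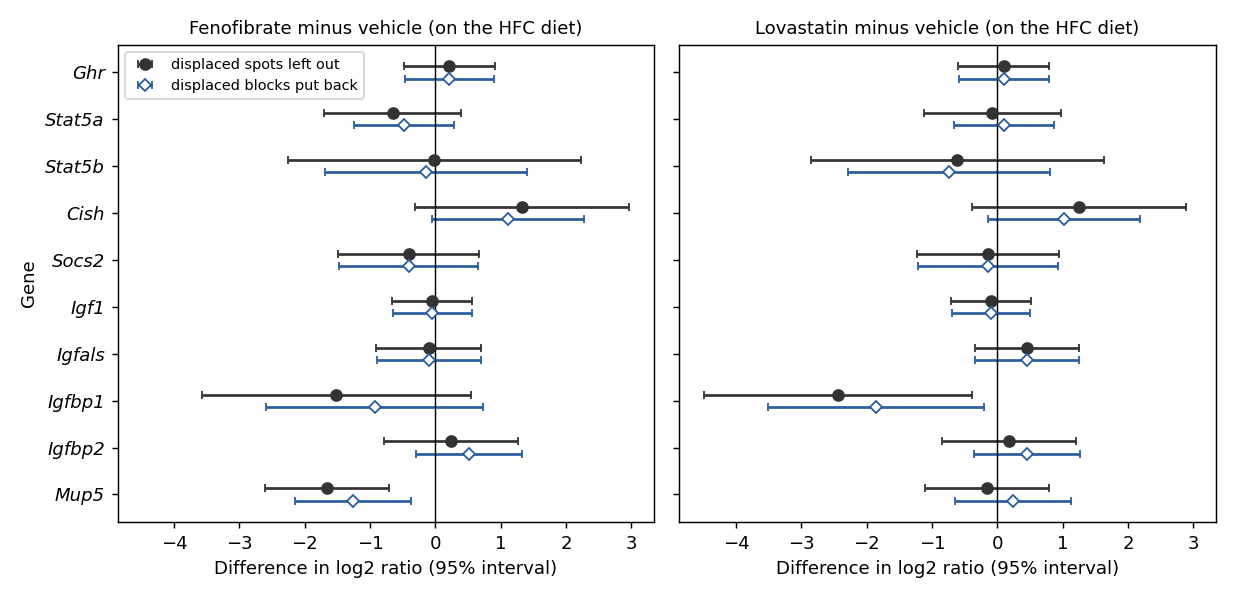
Difference in log2 ratio between drug-treated and HFC mice (horizontal axis, with 95% intervals) for fenofibrate (left) and lovastatin (right), per gene, with displaced spots left out (filled circles) and put back (open diamonds). The interval excludes 0 for Mup5 with fenofibrate (-2.61 to -0.71) and for Igfbp1 with lovastatin (-4.49 to -0.39), neither of which passed after adjustment.

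Set directly against each other, fenofibrate mice were lower than lovastatin mice in Mup5 by a log2 difference of -1.50 (95% interval -2.27 to -0.73, limma adjusted p = 0.701). None of the 10 genes passed by limma, beside 0% of 19459 features, and 1 had an unadjusted p under 0.05, beside 5.52% of features. Igfbp1 stood 0.93 higher in fenofibrate than in lovastatin mice (95% interval -0.75 to 2.60). Stat5a had a difference of -0.58 between fenofibrate and lovastatin mice (95% interval -1.44 to 0.28, limma adjusted p = 0.701).

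Genes with the nearest pattern were found for Mup5 and Igfbp1, the 2 members with a mean beyond 1 log2 unit, as the smallest root mean square difference in log2 ratio over 5 arrays. Nearest to Mup5 was Lrtm1 (difference 0.52), at -3.62 and -4.07 in fenofibrate, -2.41 and -3.33 in lovastatin and -2.89 in HFC replicate 1. Next came Fdps, farnesyl diphosphate synthase of the cholesterol pathway (difference 0.68). Nearest to Igfbp1 was Mt2, the zinc-binding metallothionein 2, with a difference of 0.16. Mt2 was at -1.75 and -2.72 in fenofibrate mice, at -2.57 and -4.20 in lovastatin mice, and at -1.04 in HFC replicate 1. The sixth array broke this likeness, because Mt2 was at 1.56 in HFC replicate 2, where Igfbp1 was at -2.09 put back. The next gene was Ppp1r3g, a regulatory subunit of a glycogen-directed phosphatase (difference 0.80). All these values share the chow pool and the arrays.

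Other genes of the pathway were examined in 5 lists, by the dye-balanced comparison, and are described by counts and medians. These are to be read beside the 0.566% of all features that passed there, the 10.8% with an unadjusted p under 0.05 and the median of 0.01. The lists too were chosen with earlier results of these data known, so their counts are a description and no test. Of 18 measured genes of growth hormone signalling and feedback none passed by limma, 1 had an unadjusted p under 0.05, and the median was -0.08. Socs3, an inhibitor that cytokines induce, was the one with the smallest p, at 0.65 and 1.58 in fenofibrate, 1.56 and 0.60 in lovastatin and 0.54 and 1.19 in HFC mice (mean 1.04, limma adjusted p = 0.177). It lay above 0 on all 6 arrays, as did Cux2, a transcription factor of the female liver pattern (mean 0.56, limma adjusted p = 0.505), while Socs1 lay below 0 on all 6 (mean -0.30, limma adjusted p = 0.547). Among 14 genes of the IGF system none passed by limma either, 2 had an unadjusted p under 0.05, and the median was -0.12. Smallest p-values there belonged to Stc1, stanniocalcin 1 (-0.55, limma adjusted p = 0.265), Igfbp4, a further IGF carrier (-0.51, limma adjusted p = 0.376), and Igf2r, the receptor that clears IGF2 (0.24, limma adjusted p = 0.606).

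Pulses of growth hormone set male-biased genes in mouse liver and a steadier hormone level sets female-biased ones. Of 25 male-biased genes listed 14 were measured, and none of the other Mup genes on the list was among them. Of these 14 none passed by limma, 5 had an unadjusted p under 0.05, and the median was -0.08. Susd4 (-1.50, limma adjusted p = 0.0518), the omega-hydroxylase Cyp4a12a (1.26, limma adjusted p = 0.0520) and the glutathione transferase Gstp1 (1.15, limma adjusted p = 0.0567) had the smallest p. Put back, Cyp4a12a was at 1.30 (limma adjusted p = 0.0118) and Gstp1 at 1.15 (limma adjusted p = 0.0399). They were the 2 of the 14 that passed then, beside 0.987% of features. Cyp4a12a was at 1.98 and 1.78 in fenofibrate mice, 0.79 and 0.71 in lovastatin mice and 0.53 in HFC replicate 1. Of 20 measured female-biased genes, 4 fell and 1 rose past the threshold, 12 had an unadjusted p under 0.05, and the median was -0.41 (over all features 0.566% passed and 10.8% had such a p). Sult3a1, a sulfotransferase, fell (-5.38, limma adjusted p = 0.00805), as did the cytochromes P450 Cyp3a16 (-2.78, limma adjusted p = 0.0273) and Cyp2c40 (-1.24, limma adjusted p = 0.0220) and Atp6v0d2, a proton pump subunit (-1.75, limma adjusted p = 0.0442). Cyp3a41a rose (1.29, limma adjusted p = 0.0394), opposite to Cyp3a16 of the same subfamily, and near-identical Cyp3a and Cyp2c genes may share signal. These 5 calls were lost without either fenofibrate array and with the fenofibrate ratios turned in sign, where all 5 means changed sign (Sult3a1 at 0.69, Cyp3a16 at 0.05, Cyp2c40 at 0.31, Atp6v0d2 at 0.29 and Cyp3a41a at -0.43). Put back, 5 of the 20 female-biased genes fell and 1 rose past the threshold, beside 0.987% of features. Male and female patterns are named here from background knowledge, and the sex of the mice was not used.

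Insulin and fasting responsive genes were listed because Igfbp1 is one of that kind. Of 12 measured, 1 passed by limma: G6pc, glucose-6-phosphatase, fell (-1.76, limma adjusted p = 0.0439), 6 had an unadjusted p under 0.05, and the median was -0.20. G6pc was at -2.17 and -2.78 in fenofibrate mice, at -1.34 and -1.32 in lovastatin mice, and at -0.19 and -1.34 in HFC mice. Like Igfbp1, it was nearest to the pool in HFC replicate 1. Its call was lost without either fenofibrate array, and with the fenofibrate ratios turned in sign its mean was 0.71 (limma adjusted p = 0.903). Tat, tyrosine aminotransferase, which is also among the hepatocyte markers (-1.06, limma adjusted p = 0.100), and Txnip, a glucose-responsive regulator of thioredoxin (-0.88, limma adjusted p = 0.113), did not pass. Txnip was nearest to the pool in HFC replicate 1 too (-0.11), whereas Tat was at -1.13 there and nearest in HFC replicate 2 (-0.34).

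Markers of hepatocytes, the cells that express most of the 10 genes, were lower too. All 5 measured of 6 listed (Alb, Ttr, Apoa1, Tat and Cps1) had a mean below 0, with a median of -0.72, none past the threshold by limma and 5 at an unadjusted p under 0.05, beside 0.566% and 10.8% of all features. Their means ran between -1.06 and -0.41, a span that holds the means of Ghr (-0.64), Igf1 (-0.48) and Cish (-0.55), while Igfals (-0.39) and Stat5b (-0.37) lay just above it. The median of these markers was -0.63 and -1.05 on the fenofibrate arrays, -0.80 and -0.65 on the lovastatin arrays, and -0.72 and -0.37 on the HFC arrays, the last over 3 of the 5 genes. Put back, 1 of the 5 passed by limma, beside 0.987% of features. Markers of other liver cells had medians between -0.27 and 0.09, with none past the threshold by limma and 0 at an unadjusted p under 0.05. Log ratios give no level, so the tissue could not be checked by abundance. The part of the hepatocyte markers in the lower values of the 10 genes was not tested. Mup5 and Igfbp1 lay below the lowest of these markers.

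**Figure D4:**
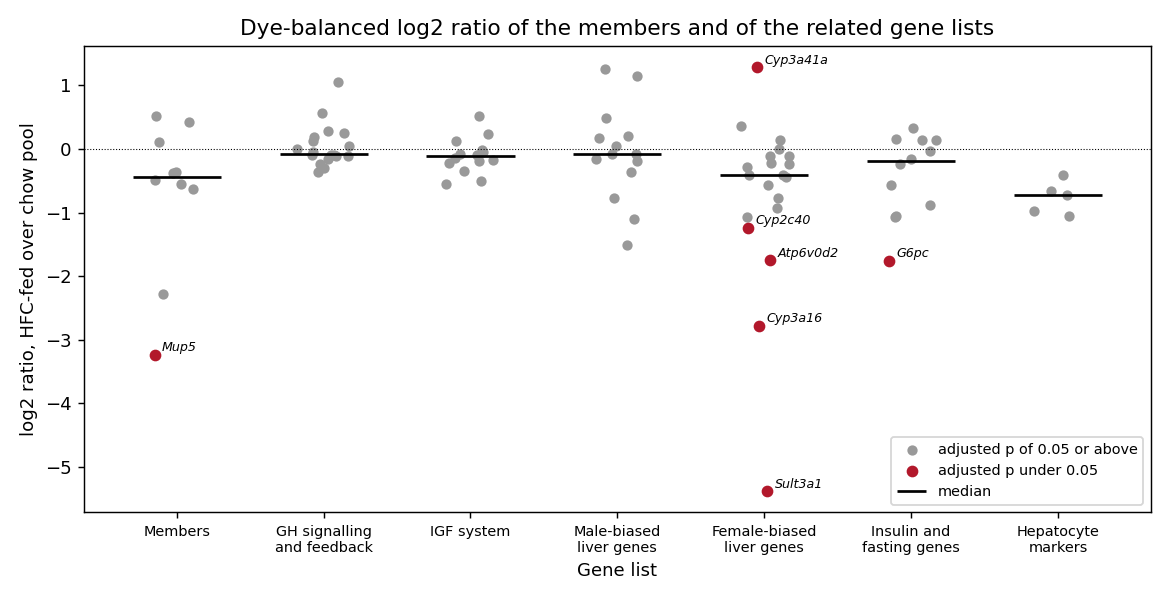
Dye-balanced log2 ratio of HFC-fed mice over the chow pool (vertical axis) for the 10 genes, the 5 related lists and the hepatocyte markers, 1 point per gene, with red for a limma adjusted p under 0.05 and a bar for each median. Mup5 at -3.24 is the red point among the 10 genes, Sult3a1 at -5.38 is the lowest point, and the hepatocyte markers have a median of -0.72.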

How the data were processed

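Liver RNA of 6 HFC-fed mice was hybridised against a chow pool on 2-colour arrays. The authors' deposited log ratios were used, 1 value per spot, and read as log2 by convention, since the base is not stated. A control spot read -9.71 in lovastatin replicate 1, larger in size than 4.82, the greatest log10 ratio of 16-bit signals. How the spots were scanned, corrected for background and normalized is not given in the sources used here. Medians ran between -0.01 and 0.03 over the arrays. Of 22575 spots, 726 without a value and 561 repeated controls were left out, leaving 21288 probes. Gene symbols came from the platform annotation: 18658 probes had 1 symbol, 30 several and 3887 none, counted over all spots. Probes of 1 gene were averaged, giving 19517 features, 2630 of them unnamed.

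Groups followed the sample titles. Group means were fitted over all 6 arrays with limma 3.58.1 (lmFit and eBayes, R 4.3.3), displaced spots of HFC replicate 2 set missing, and p-values were adjusted over all features (Benjamini-Hochberg, threshold 0.05). The dye-balanced mean was a contrast of that fit. Tables and figures used Python 3.11.15, numpy 2.4.6, pandas 2.3.3 and matplotlib 3.10.9. The number of arrays, 2 per group, limits the precision. The pool enters as 0, without the spread of chow mice.

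All 10 genes are named. Of each list, genes past the threshold (up to 6) or otherwise the 3 with the smallest p are named, and for members beyond 1 log2 unit the 2 genes nearest in pattern. Members and lists were chosen with earlier results of these data known. Alternatives covered displaced spots put back or as deposited, centring, quantile normalization, single probes, noisy features, robust prior, array weights, the sign of the fenofibrate arrays, a replicate block and each array left out.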

Additional observations from a re-analysis of the deposited data

Results flagged for a closer look

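Stat5a lay below 0 in both fenofibrate mice (-0.09 and -0.32) and above 0 in both lovastatin mice (0.64 and 0.11). The values of the groups thus lay on opposite sides of 0, some of them close to it. How many of all features do so was not counted. The difference was -0.58 (95% interval -1.44 to 0.28, limma adjusted p = 0.701), and the dye also differed between these groups. The opposition rests on the likely direction of the fenofibrate ratios: turned in sign, the fenofibrate mean was 0.21, on the same side as the lovastatin mice, and the difference -0.17 (limma adjusted p = 0.822).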

How the results depend on the processing

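Among 1266 alternative values of the 10 genes, 1173 kept their direction and side of the threshold, 68 changed sign and 4 were exactly 0. Whatever their sign, 19 passed newly and 5 no longer passed. The cause was not tested. In the dye-balanced comparison the number of the 10 genes past the threshold was 1. It was 2 with displaced blocks put back, without the noisiest 10% of features and with array weights, 0 as deposited, and 0 to 2 with each array left out. All features called numbered 110, against 192 put back, 67 as deposited, 191 with quantile normalization, 346 without the noisiest features, 230 with array weights, 5 without HFC replicate 1 (where 4 of the 10 genes could be tested), 25 without HFC replicate 2, 228 and 824 without lovastatin replicate 1 or 2, and 0 without either fenofibrate array. In fenofibrate mice against the pool the number of genes was 0, against 1 put back, median-centred, quantile-normalized, without the noisiest features or with array weights (among 32, 12, 14, 100 and 111 features called), and 0 to 1 with arrays left out. In lovastatin mice against the pool it was 0, against 1 without the noisiest features (44 features) and 0 to 3 with arrays left out, 3 without lovastatin replicate 2, where 3805 features were called.

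Same-numbered replicates did not deviate together (correlations -0.0198, -0.00788 and 0.0407 over 9686 features). With the replicate block 0 genes passed in the dye-balanced comparison (0 features; Mup5 at an adjusted p of 0.0801, limma), and with the block and displaced blocks put back, chosen after seeing the data, 2 (68 features). The block gave 0.12 for Stat5a between lovastatin and HFC mice and 0.0175 for Stat5b in HFC mice against the pool, and put back as well 0.24 for Mup5 and 0.11 for Stat5a between lovastatin and HFC mice.

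Put back alone, lovastatin against HFC gave 0.24 for Mup5 and 0.11 for Stat5a. As deposited, HFC against the pool gave -0.39 for Igfbp2, -0.035 for Stat5a and 0.55 for Stat5b, the dye-balanced Stat5a was -0.0175, and Stat5a in lovastatin against HFC was 0.41. Quantile normalization gave 0.64 for Mup5 and 0.0075 for Igf1 in lovastatin against HFC, -0.0166 for Igf1 and -0.0133 for Ghr in fenofibrate against lovastatin, and 0.0708 for Stat5b in fenofibrate against HFC. Without both doubted arrays, HFC replicate 2 and lovastatin replicate 1 (chosen after seeing the data), Igf1 was 0.02 in fenofibrate against HFC, Stat5b was 0.03 in lovastatin against the pool and 0.24 in lovastatin against HFC, and fenofibrate against lovastatin gave -0.18 for Igfbp2 and -0.26 for Stat5b.

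With fenofibrate ratios turned in sign, 0 genes passed in the dye-balanced comparison (Mup5 0.79, Igfals 0.16, Igfbp1 0.15, Igfbp2 -0.075), 1 for fenofibrate against HFC and 1 against lovastatin (Mup5, 6.40 and 6.56, among 37 and 60 features, with 0 features in the dye-balanced comparison). Fenofibrate against the pool then gave 4.03 for Mup5, 0.48 for Igf1, 0.55 for Igfals, 2.44 for Igfbp1, -0.59 for Igfbp2, 0.56 for Ghr, -0.25 for Socs2, 0.20 for Cish, 0.21 for Stat5a and 0.23 for Stat5b. Against HFC it gave 0.92 for Igf1, 1 for Igfals, 3.36 for Igfbp1, -0.94 for Igfbp2 and 0.44 for Stat5b, and against lovastatin 0.55 for Igfals and -1.12 for Igfbp2.

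With each array left out, signs changed for fenofibrate against HFC within -0.145 to 0.055 for Igf1, -0.45 to 0.25 for Igfals and -0.41 to 0.38 for Stat5b. For fenofibrate against lovastatin the ranges were -0.05 to 0.15 for Igf1, -0.18 to 0.30 for Igfbp2, -0.10 to 0.33 for Ghr, -0.69 to 0.16 for Socs2, -0.38 to 0.55 for Cish and -0.26 to 1.45 for Stat5b. For lovastatin against HFC they were -0.06 to 0.42 for Igfbp2, -0.03 to 0.23 for Ghr, -0.57 to 0.28 for Socs2, -0.34 to 0.19 for Stat5a and -1.46 to 0.24 for Stat5b. Against the pool they were -0.05 to 0.06 for Igfals, -0.75 to 0.18 for Cish and -1.67 to 0.03 for Stat5b in lovastatin mice, and -0.63 to 0.23 for Cish and -0.62 to 0.17 for Stat5b in fenofibrate mice. No value exists without HFC replicate 1 for the 6 displaced genes where HFC enters.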
